A study of Homo sapiens with 12 samples.

Results

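Krüppel-like factors (KLFs) are transcription factors, and 10 of their genes, KLF2, KLF3, KLF4, KLF5, KLF6, KLF7, KLF9, KLF10, KLF11 and KLF13, are described here across BMP signaling and loss of the ubiquitin ligase MIB1. The genes were chosen by name, with earlier results of these data known. Each was found by its Ensembl identifier among the 58302 genes of the count table, which holds 18 KLF genes in all. RNA was sequenced from MIB1-iKO cells, which are NCIH838 lung cancer cells carrying Cas9 and a guide RNA against MIB1 under the control of doxycycline (Dox). In all 4 groups, cells were kept for 3 days in 50 nM LDN189193 (LDN, spelled here as in the labels and LDN-193189 in the study's methods), an inhibitor of BMP receptor kinases, and then received 10 ng/ml BMP4 for 24 hours. MIB1 WT cells received no Dox and MIB1 KO cells received 0.5 μg/ml Dox during the 3 days. BMP-off cells stayed in 50 nM LDN during the 24 hours with BMP4, and BMP-on cells were given DMSO in its place. The groups were therefore WT BMP-off, WT BMP-on, KO BMP-off and KO BMP-on, with 3 libraries each. MIB1-iKO cells were cloned from single cells, and only KO cells met Dox and the cut by Cas9, so that these cannot be told apart from the loss of MIB1. The labels do not say whether replicates were separate cultures, and p-values then measure only the spread between these libraries.

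KLF proteins bind GC-rich boxes and CACCC boxes in promoters through zinc fingers at the C-terminus, the same kind of DNA that SP factors bind, and differ in whether they activate or repress. KLF10 and KLF11 (TIEG1 and TIEG2) are repressors first known as early genes of TGF-β signaling. KLF4 and KLF6 are known to raise the cell-cycle inhibitor gene CDKN1A, and KLF5 is known to favor proliferation of epithelial cells. In this setting, BMP4 acts through receptor kinases and SMAD1, SMAD5 and SMAD9.

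Libraries held 19124010 to 29498000 counts, and all 10 KLF genes passed the filter on low counts that left 17188 genes for testing. MIB1 itself, the check of the knockout, lay between 144 and 176 CPM (counts divided by the TMM-scaled library size) in the 6 WT libraries and between 31.0 and 34.4 CPM in the 6 KO libraries. Of the epithelial markers, KRT8 and KRT18 had group means of 119 to 181 CPM and 152 to 154 CPM. EPCAM (5.37 to 9.28 CPM) and CDH1 (6.88 to 8.57 CPM) were lower, and KRT19 reached at most 0.104 CPM. Of the lung adenocarcinoma markers, NKX2-1 and SFTPB reached at most 0.0869 CPM and NAPSA at most 1.03 CPM. Endothelial cells are a main site of KLF2 and KLF4, and their markers PECAM1, CDH5, VWF, KDR and TEK did not exceed 0.763 CPM in any library. The immune marker PTPRC had 0 counts, and CD14 lay between 3.01 and 4.88 CPM. Of the fibroblast markers, COL1A1 (14.1 to 36.7 CPM) and PDGFRB (0.694 to 1.33 CPM) rose with BMP in KO cells, while DCN and COL1A2 stayed at or under 0.227 CPM. With BMP, EPCAM fell in WT and in KO cells, and KRT8 rose in KO cells. CDH5 also fell in KO cells, but from a mean of only 9.333 counts per library with BMP-off to 1.667 with BMP-on. The part of these markers in the KLF values was not tested. Deviations of libraries from their group mean followed the GC content of the transcript across genes, with a Spearman's rho from -0.75 in KO BMP-off replicate 2 to 0.73 in KO BMP-off replicate 3. Values with a correction for GC content are therefore given for some of the genes.

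The bases just upstream of an annotated start site show where KLF and SP factors could bind on the KLF genes themselves. RefSeq windows on GRCh38.p14 were found for 8 of the 10 genes (13 windows of 250 bases, since some genes have several starts). Shown are KLF4 and KLF13, which rose with BMP in WT and in KO cells, and KLF5 (its second, downstream start) and KLF6, which fell in both. Each reads 5′ to 3′ on the strand of the gene. Capitals mark the GC box GGGCGG and the CACCC box on either strand (CCGCCC and GGGTG on the other), and in KLF13 a GC box and a CACCC box share bases. The KLF4 window lies upstream of an inner start and inside the annotated gene (107484852 to 107490482). The KLF6 window was shortened by 72 bases that an annotated exon covers.
KLF4, chr9:107489770-107490019, minus strand: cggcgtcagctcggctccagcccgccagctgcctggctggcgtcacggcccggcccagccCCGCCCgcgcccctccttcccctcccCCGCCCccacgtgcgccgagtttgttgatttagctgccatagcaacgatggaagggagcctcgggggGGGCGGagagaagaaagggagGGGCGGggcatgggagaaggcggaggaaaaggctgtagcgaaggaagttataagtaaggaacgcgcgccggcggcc
KLF13, chr15:31326585-31326834, plus strand: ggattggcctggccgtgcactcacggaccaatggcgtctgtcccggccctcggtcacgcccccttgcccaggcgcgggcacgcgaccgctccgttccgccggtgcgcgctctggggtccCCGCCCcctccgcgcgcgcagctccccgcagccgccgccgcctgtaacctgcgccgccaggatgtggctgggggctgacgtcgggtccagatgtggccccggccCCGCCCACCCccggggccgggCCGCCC
KLF5, chr13:73058755-73059004, plus strand: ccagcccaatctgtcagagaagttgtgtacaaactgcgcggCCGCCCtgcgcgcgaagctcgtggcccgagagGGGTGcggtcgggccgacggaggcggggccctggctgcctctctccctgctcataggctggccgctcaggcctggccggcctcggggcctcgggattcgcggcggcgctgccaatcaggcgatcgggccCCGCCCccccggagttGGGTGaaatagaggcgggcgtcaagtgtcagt
KLF6, chr10:3785282-3785459, minus strand: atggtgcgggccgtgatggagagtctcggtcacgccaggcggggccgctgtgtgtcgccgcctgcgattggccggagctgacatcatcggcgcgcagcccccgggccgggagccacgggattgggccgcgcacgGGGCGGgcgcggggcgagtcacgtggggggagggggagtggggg
In these letters KLF4 had 4 GC boxes, KLF13 had 3 and a single CACCC box, KLF5 had 2 of each, and KLF6 had 1 GC box in the 178 bases shown. A GC box was found in 7 of the 8 genes, KLF9 being the exception, against 42.6% of 35116 windows of all genes. The CACCC box was found in 4 of the 8 genes, against 54.7% of all windows. The SMAD box CAGAC was found in 3 of the 8 (KLF7, KLF11 and KLF13), against 38.0% of all windows, and the GC element GGCGCC of SMAD1 and SMAD5 in 1 (KLF7), against 16.4%. Genes with several windows had more chances of a match. The windows of KLF4, KLF6 and KLF13 held 69.2%, 72.4% and 78.8% G and C and that of KLF9 held 32.4%, with a median of 58.0% over all windows.

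The level of the KLF genes spanned a wide range. On the per-length scale of the deposited RPKM values, WT BMP-off cells held most of KLF5, a factor of proliferating epithelium, at 67.7 ± 2.81 RPKM (SD, n = 3). KLF6 (24.0 ± 0.653 RPKM) and KLF10 (21.7 ± 1.46 RPKM) followed, and then KLF13 (12.6 ± 0.681 RPKM). KLF3 and KLF11, at 10.7 ± 0.481 and 10.1 ± 0.368 RPKM, did not differ beyond their spread, nor did KLF9 and KLF4, at 8.40 ± 0.654 and 8.25 ± 0.225 RPKM. KLF7 and KLF2 came last at 1.34 ± 0.0788 and 0.521 ± 0.175 RPKM. In KO BMP-on cells the order was KLF5 (49.6 ± 1.16 RPKM), KLF10 (33.2 ± 3.25 RPKM), KLF13 (20.4 ± 0.280 RPKM), KLF4 (15.8 ± 1.49 RPKM) and KLF6 (15.4 ± 1.08 RPKM), the last pair again within their spread. From WT BMP-off to KO BMP-on, KLF4 had moved from place 8 to place 4 and KLF6 from place 2 to place 5.

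The sum over the 10 genes differed little between groups, at 165 ± 5.92 RPKM in WT BMP-off, 164 ± 3.27 in WT BMP-on, 164 ± 6.15 in KO BMP-off and 162 ± 7.05 in KO BMP-on (SD, n = 3). Within this sum the shares shifted. KLF5 made up 41.0% in WT BMP-off, 36.3% in WT BMP-on, 39.7% in KO BMP-off and 30.7% in KO BMP-on cells. KLF10, in the same order, made up 13.1%, 16.6%, 14.3% and 20.5%. The shares of KLF4, KLF10, KLF13 and KLF2 grew with BMP, and those of KLF5, KLF6, KLF9, KLF3 and KLF11 shrank in WT and in KO cells. The shares are descriptions without a test.

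**Figure D1:**
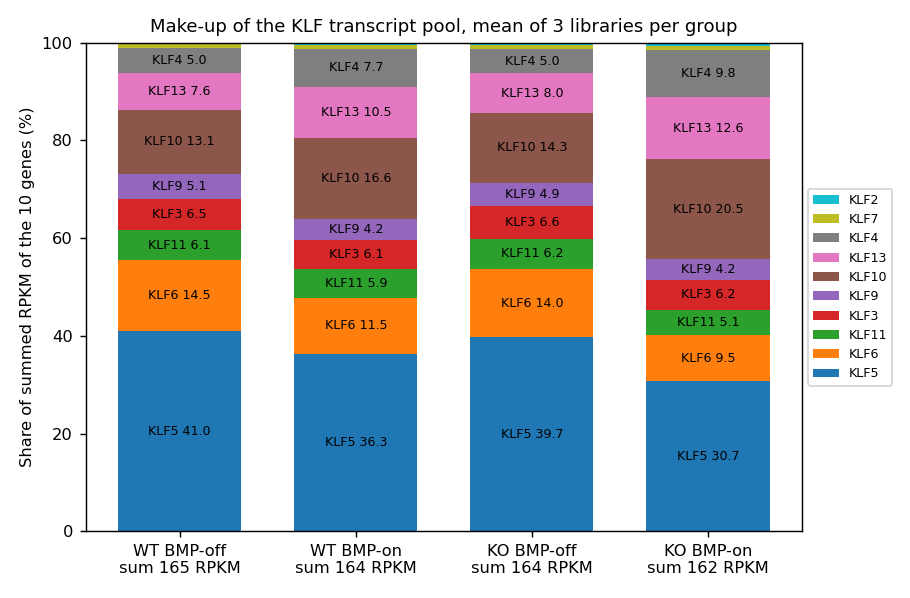
Share of each KLF gene in the summed RPKM of the 10 genes (y axis, percent), as the mean of 3 libraries for each group (x axis, with the sum in RPKM). The sum stays between 162 and 165 RPKM while KLF5 shrinks from 41.0% to 30.7% and KLF10 grows from 13.1% to 20.5% between WT BMP-off and KO BMP-on.

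The BMP response compares BMP-on with BMP-off. In WT cells, 3 of the 10 KLF genes rose (KLF4, KLF13 and KLF10) and 2 fell (KLF6 and KLF5), where 1.91% of the 17188 genes tested rose and 2.01% fell (edgeR, Benjamini-Hochberg adjusted p of at most 0.05). In KO cells, the same 3 rose and 3 fell (KLF6, KLF5 and KLF11), where 11.1% of all genes rose and 10.9% fell. Since the 10 genes were chosen with earlier results of these data known, these counts are not a test of KLF genes as a family. None of the 10 was called with a log2 fold change past 1 in either direction, as 0.425% of all genes were in WT and 1.66% in KO cells. The median log2 fold change of the 10 genes was -0.02 in WT and -0.05 in KO cells, beside 0.00 and 0.01 over all genes tested.

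**Figure D2:**
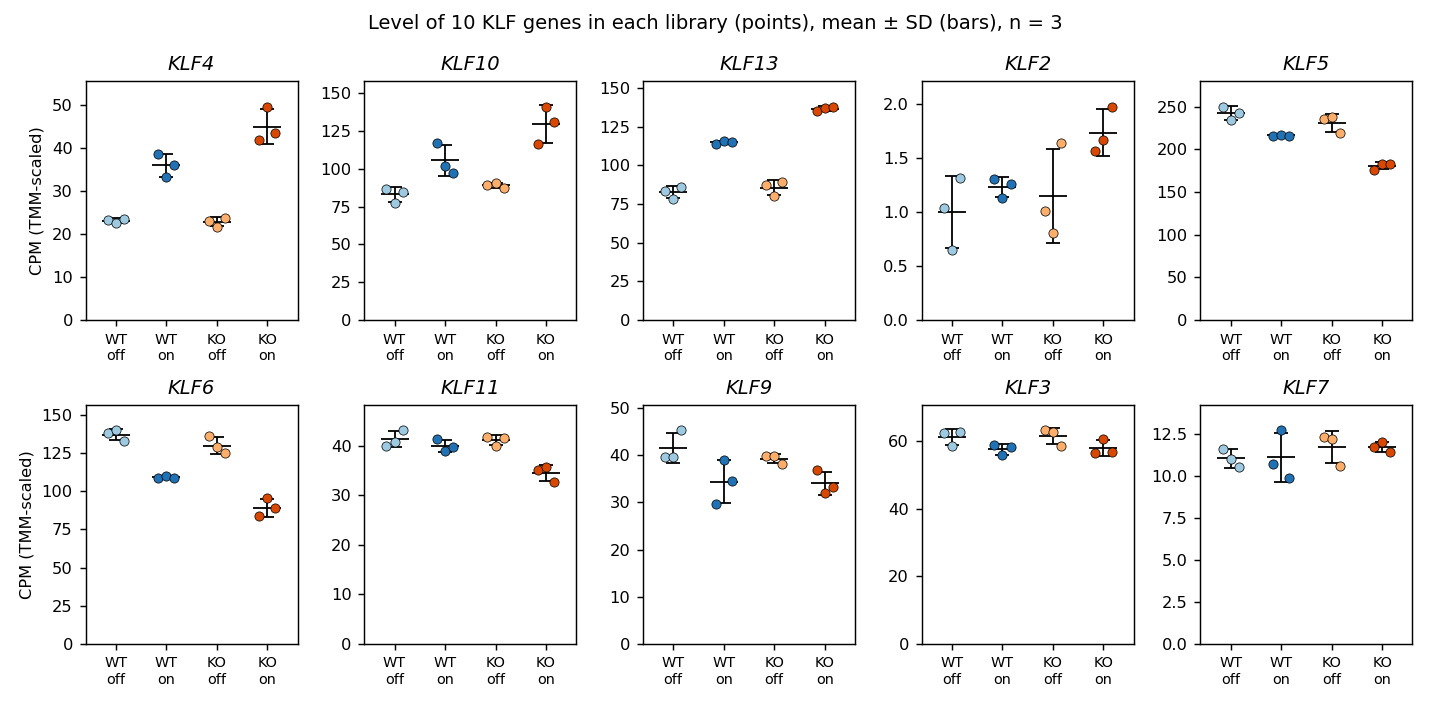
Level of each KLF gene (y axes, TMM-scaled CPM from 0) in WT and KO cells with BMP-off and BMP-on (x axes), with points for libraries and bars for the mean ± SD (n = 3). KLF4, KLF10 and KLF13 are higher with BMP-on, KLF5 and KLF6 are lower, and the mean of each of these is farthest from BMP-off in KO BMP-on cells, where KLF4 lies between 41.8 and 49.6 CPM and KLF6 between 83.6 and 95.5 CPM.

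KLF4, a regulator of epithelial differentiation (chromosome 9, 107484852 to 107490482 on GRCh38), changed most in both BMP responses. In WT cells it lay at 23.3, 22.6 and 23.5 CPM with BMP-off and at 38.6, 33.3 and 36.0 CPM with BMP-on. In KO cells it lay at 23.0, 21.7 and 23.8 CPM with BMP-off and at 41.8, 49.6 and 43.5 CPM with BMP-on. All BMP-on libraries stood above all BMP-off libraries, and the KO BMP-on libraries stood above the WT BMP-on libraries. Its log2 fold change was 0.64 (standard error, SE, 0.075, Benjamini-Hochberg adjusted p = 8.60e-05 by edgeR) in WT and 0.98 (SE 0.075, adjusted p = 1.95e-07) in KO cells. With each library left out in turn, it ranged from 0.58 to 0.69 in WT and from 0.90 to 1.02 in KO cells.

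KLF13, a broadly expressed factor that also acts in lymphocytes and heart (chromosome 15, 31326835 to 31435665), varied little between BMP-on libraries. It measured 83.7, 78.3 and 86.1 CPM in WT BMP-off and 114, 116 and 115 CPM in WT BMP-on libraries. The KO libraries held 87.4, 80.3 and 89.2 CPM with BMP-off and 135, 137 and 138 CPM with BMP-on. None of these groups with BMP-on overlapped with another group. The log2 fold change was 0.47 (SE 0.050, Benjamini-Hochberg adjusted p = 2.83e-05 by edgeR) in WT and 0.67 (SE 0.050, adjusted p = 1.51e-07) in KO cells. KLF13 and KLF4 have GC-rich transcripts (57.7% and 55.9%), and with the GC correction their log2 fold changes were 0.43 and 0.61 in WT and 0.50 and 0.86 in KO cells, all called.

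KLF10 (chromosome 8, 102648784 to 102655725) is the TGF-β early gene TIEG1, with a transcript of 47.2% G and C. WT libraries held 86.8, 77.5 and 84.9 CPM with BMP-off and 117, 102 and 97.4 CPM with BMP-on. KO libraries held 89.1, 90.6 and 87.0 CPM with BMP-off and 116, 141 and 131 CPM with BMP-on. BMP-on libraries were above BMP-off libraries in both kinds of cells, with a wider spread than for KLF13. The log2 fold change was 0.35 (SE 0.075, Benjamini-Hochberg adjusted p = 0.0147 by edgeR) in WT and 0.54 (SE 0.075, adjusted p = 0.000103) in KO cells. The call in WT cells was lost without WT BMP-on replicate 1 (0.26, adjusted p = 0.104), which holds the value of 117 CPM, and without WT BMP-off replicate 2 (0.30, adjusted p = 0.0848).

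KLF11 (chromosome 2, 10042849 to 10054836), its closest relative TIEG2, did not move with it. It lay at 40.0, 40.8 and 43.1 CPM in WT BMP-off and at 41.3, 38.9 and 39.7 CPM in WT BMP-on libraries, which overlapped. In KO cells it lay at 41.8, 40.0 and 41.5 CPM with BMP-off and at 35.1, 35.7 and 32.7 CPM with BMP-on, and the KO BMP-on libraries were the lowest of all 12. The log2 fold change was -0.05 (95% interval -0.17 to 0.07, edgeR Benjamini-Hochberg adjusted p = 0.752) in WT and -0.25 (SE 0.057, adjusted p = 0.00446) in KO cells. An antisense gene overlaps 416 bases of its exons, and whether the counting used strand is not given in the sources used here.

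KLF6 (chromosome 10, 3775996 to 3785281), described as a tumor suppressor that can raise CDKN1A, fell. WT libraries went from 138, 140 and 133 CPM with BMP-off to 109, 110 and 109 CPM with BMP-on. KO libraries went from 136, 129 and 125 CPM to 83.6, 95.5 and 88.8 CPM. BMP-off and BMP-on did not overlap in either, and KO BMP-on lay under WT BMP-on. The log2 fold change was -0.32 (SE 0.052, Benjamini-Hochberg adjusted p = 0.00131 by edgeR) in WT and -0.54 (SE 0.052, adjusted p = 1.87e-06) in KO cells.

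KLF5 (chromosome 13, 73054976 to 73077541), the most abundant of the 10 per length, fell by less. It measured 250, 234 and 243 CPM in WT BMP-off and 216, 217 and 216 CPM in WT BMP-on libraries. In KO cells it measured 235, 238 and 219 CPM with BMP-off and 176, 183 and 183 CPM with BMP-on. The 3 KO BMP-on libraries were again the lowest of all. The log2 fold change was -0.17 (SE 0.043, Benjamini-Hochberg adjusted p = 0.0397 by edgeR) in WT and -0.35 (SE 0.043, adjusted p = 2.39e-05) in KO cells. The call in WT cells was close to the threshold, with adjusted p of up to 0.184, and was lost without WT BMP-off replicate 1 or 3, any of WT BMP-on replicates 1, 2 and 3, KO BMP-off replicate 1, or KO BMP-on replicate 1 or 3. It was also lost with upper-quartile scaling (adjusted p = 0.0639), with a replicate block (0.0887) and on log2(RPKM) values (0.0773 to 0.116).

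KLF9, KLF3, KLF7 and KLF2 were not called in WT or in KO cells. KLF9, a gene known to respond to glucocorticoid and thyroid hormones (chromosome 9, 70384604 to 70414657), lay between 39.6 and 45.3 CPM in WT BMP-off, 29.7 and 39.0 CPM in WT BMP-on, 38.2 and 39.8 CPM in KO BMP-off and 32.1 and 36.8 CPM in KO BMP-on libraries. BMP-on libraries were below BMP-off libraries in both kinds of cells, yet the log2 fold changes of -0.27 (95% interval -0.45 to -0.08) and -0.20 (-0.39 to -0.02) had edgeR Benjamini-Hochberg adjusted p of 0.112 and 0.107. Without WT BMP-on replicate 2, which held 39.0 CPM, that in WT cells was -0.37 and called (adjusted p = 0.0294). Without a filter on low counts, KLF9 was called in WT (-0.27, adjusted p = 0.00853) and in KO cells (-0.21, adjusted p = 0.0313). This made 6 and 7 of the 10 genes, while calls over all genes in WT cells rose from 674 to 1047. KLF3 (chromosome 4, 38664197 to 38701517), a repressor that recruits CTBP, ranged from 55.8 to 63.2 CPM over the 12 libraries, with a log2 fold change of -0.09 in each (95% intervals -0.20 to 0.02 and -0.20 to 0.03). KLF7 (chromosome 2, 207074137 to 207173856), known from neurons, ranged from 9.88 to 12.7 CPM, with log2 fold changes of 0.01 (-0.20 to 0.22) and -0.01 (-0.22 to 0.20). Antisense genes overlap exons of KLF3 by 265 bases and of KLF7 by 80 bases.

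KLF2 (chromosome 19, 16324826 to 16328685), the flow-induced factor of endothelium, had only 15 to 51 counts per library. It lay at 1.04, 0.652 and 1.32 CPM in WT BMP-off and at 1.31, 1.13 and 1.26 CPM in WT BMP-on libraries. In KO cells it lay at 1.01, 0.803 and 1.64 CPM with BMP-off and at 1.57, 1.67 and 1.98 CPM with BMP-on. Groups overlapped in both comparisons. The log2 fold change was 0.29 (95% interval -0.29 to 0.87, edgeR Benjamini-Hochberg adjusted p = 0.682) in WT and 0.61 (0.08 to 1.15, adjusted p = 0.0933) in KO cells. With KO BMP-off replicate 3 left out, this last value was 0.92 and called (adjusted p = 0.0117), whereas the GC correction, for a transcript of 61.2% G and C, left 0.34 (adjusted p = 0.309).

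**Figure D3:**
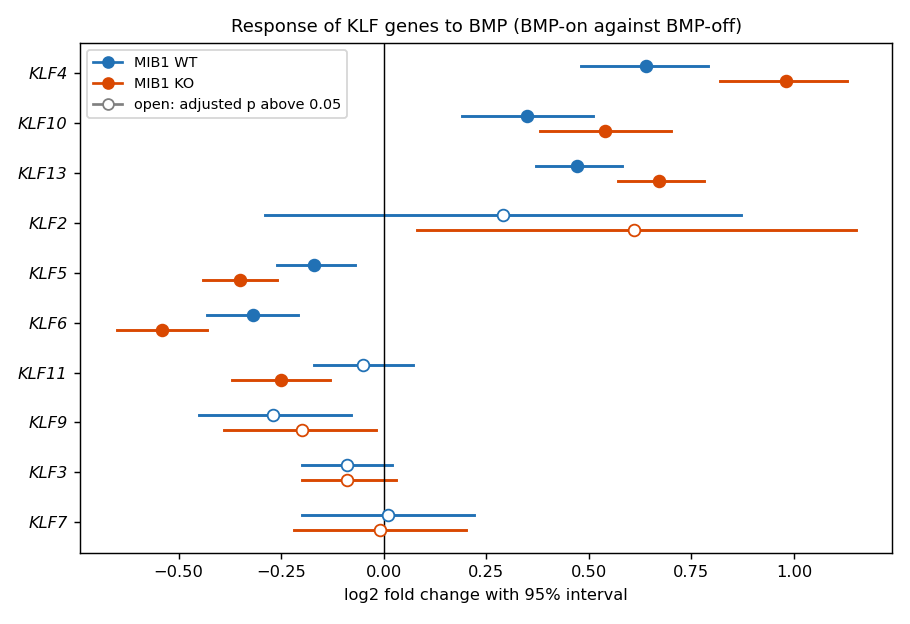
Log2 fold change of BMP-on against BMP-off (x axis) for each KLF gene (y axis) in WT (blue) and KO cells (orange), with 95% intervals from edgeR, and open circles where the adjusted p is above 0.05. The value of KLF4 is 0.64 in WT and 0.98 in KO cells and that of KLF6 is -0.32 and -0.54.

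Loss of MIB1 was compared within each BMP state. These comparisons use the same groups of libraries as the BMP responses, so their values are not independent of those above. With BMP-on, 3 of the 10 KLF genes were higher in KO than in WT cells and 3 were lower, where 1.32% of all genes were higher and 2.34% lower, and 0.140% were called with a log2 fold change past 1 in either direction. KLF4 was higher by 0.32 on the log2 scale (SE 0.072, Benjamini-Hochberg adjusted p = 0.0173 by edgeR), and KLF13 by 0.25 (SE 0.050, adjusted p = 0.00764). KLF10 differed by 0.29 (SE 0.075, adjusted p = 0.0423), although its lowest KO library, at 116 CPM, was under its highest WT library, at 117 CPM. KLF6 was lower, at -0.29 (SE 0.052, adjusted p = 0.00370), as was KLF5, at -0.26 (SE 0.043, adjusted p = 0.00229). KLF11 was lower by a value near the threshold, -0.21 (SE 0.057, adjusted p = 0.0494). KLF2 (0.51, 95% interval -0.02 to 1.03), KLF7 (0.07, -0.14 to 0.28), KLF3 (0.01, -0.10 to 0.12) and KLF9 (-0.02, -0.20 to 0.17) were not called.

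Of these 6 calls, those of KLF5, KLF6 and KLF13 held with each of the 12 libraries left out and in 13 other settings. That of KLF4 was lost without WT BMP-on replicate 2 or 3 or KO BMP-on replicate 2 (log2 fold changes of 0.27, 0.32 and 0.24, edgeR Benjamini-Hochberg adjusted p = 0.118, 0.0751 and 0.110). That of KLF10 was lost without WT BMP-on replicate 2 or 3, KO BMP-on replicate 2 or 3, WT BMP-off replicate 3 or KO BMP-off replicate 1, with adjusted p of up to 0.231. That of KLF11 was lost without any 1 of 10 libraries, with adjusted p of up to 0.223, and held without KO BMP-off replicate 2 or 3. In the 13 other settings, the call of KLF4 was lost in 3, that of KLF10 in 5 and that of KLF11 in 8, with adjusted p of up to 0.0828, 0.272 and 0.103.

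With BMP-off, no KLF gene was called. The 10 log2 fold changes of KO against WT ranged from -0.08 (KLF9) to 0.19 (KLF2), with edgeR Benjamini-Hochberg adjusted p from 0.575 to 0.975 and none with an unadjusted p under 0.05. Few genes were called here at all, 0.00582% higher, 0.0349% lower and 0.0116% with a log2 fold change past 1 in either direction, so that the absence of KLF genes is close to that background. For the genes that differed with BMP-on, the 95% intervals with BMP-off were -0.18 to 0.15 for KLF4 and -0.06 to 0.26 for KLF10. They were -0.06 to 0.16 for KLF13, -0.18 to 0.04 for KLF6, -0.16 to 0.02 for KLF5 and -0.13 to 0.11 for KLF11. Over 13 other settings, which include the GC correction, the BMP-off difference of KLF13 ranged from 0.05 to 0.15 and was not called in any.

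**Figure D4:**
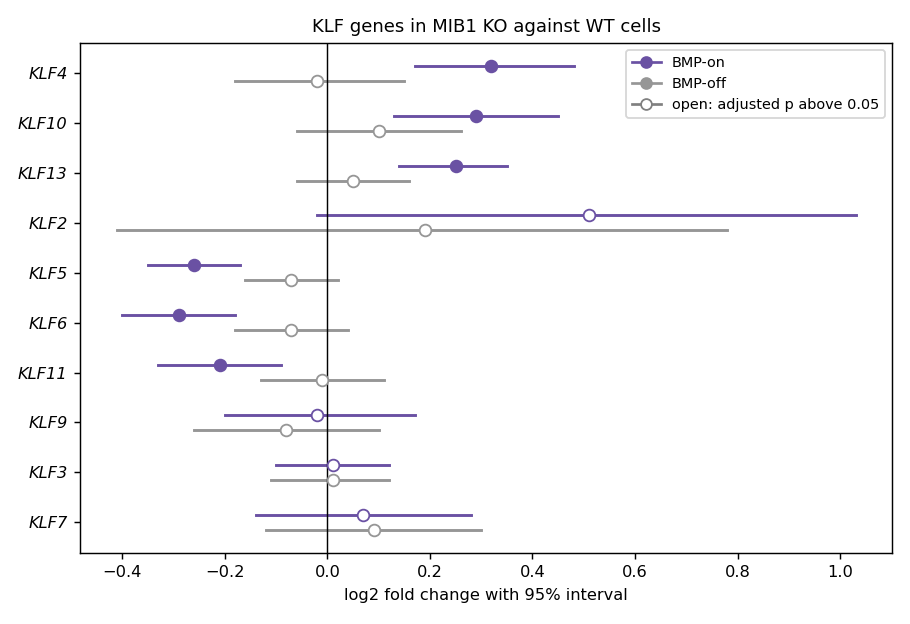
Difference of KO from WT cells as log2 fold change (x axis) for each KLF gene (y axis) with BMP-on (purple) and BMP-off (gray), with 95% intervals from edgeR, and open circles where the adjusted p is above 0.05. With BMP-on, KLF4 lies at 0.32 and KLF6 at -0.29, and with BMP-off every interval includes 0.

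Whether the BMP response itself differed between KO and WT cells was tested by the interaction. No KLF gene was called, beside 0.0931% of all genes (16 of 17188, either direction), and 5 of the 10 had an unadjusted p under 0.05, as did 1819 of the 17188. DESeq2 called 0 of the 10 as well, although KLF2 had an adjusted p in only 11 of the 12 other settings of this test. The differences were 0.34 for KLF4 (95% interval 0.12 to 0.56, edgeR Benjamini-Hochberg adjusted p = 0.252), 0.20 for KLF13 (0.05 to 0.35, adjusted p = 0.328) and 0.19 for KLF10 (-0.03 to 0.42, adjusted p = 0.524). They were -0.22 for KLF6 (-0.38 to -0.06, adjusted p = 0.301), -0.19 for KLF5 (-0.32 to -0.06, adjusted p = 0.287) and -0.21 for KLF11 (-0.37 to -0.04, adjusted p = 0.371). A larger BMP response of these genes in KO cells is thus not shown over all genes tested, and with the GC correction the difference of KLF13 was 0.07. The other 4 genes had intervals that include 0.

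Libraries that were high in one of the moving genes tended to be high or low in the others, and the libraries share 4 groups. Over the 12 libraries, the log2 CPM of KLF4 and KLF13 had a Pearson's r of 0.98 and that of KLF5 and KLF6 one of 0.96, while KLF6 and KLF13 had -0.96. After group means were taken out, the same pairs had 0.35, 0.45 and -0.13. Some other pairs kept more, such as KLF4 with KLF10 (0.94 before and 0.68 after) and KLF4 with KLF9 (-0.79 and -0.69). Among 12836 genes with a mean of at least 50 counts, the patterns most like that of KLF4 were FGFR3, KANK4 and GSE1 (each r of 0.99). Those most like KLF10 were FAXDC2, TRIB1 and MYPN (each 0.98), and those most like KLF11 were TMPO-AS1 (0.97), CDCA5 and CDR2 (each 0.95). These values are descriptions over 12 libraries of 4 groups, for which depth and GC content also vary.

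The remaining KLF genes were mostly silent or low. KLF1, KLF8 and KLF17 reached at most 0.168 CPM, KLF18 had 0 counts, and KLF12, KLF14, KLF15 and KLF16 were tested. In WT cells 0 of these 4 were called and 0 had an unadjusted p under 0.05. In KO cells, KLF14 rose with BMP by 0.50 on the log2 scale, from 1.52 to 2.14 CPM (edgeR Benjamini-Hochberg adjusted p = 0.0389), and KLF12, a repressor, fell by 0.26 on the log2 scale, from 31.7 to 26.6 CPM (adjusted p = 0.0331). KLF16 had 0.13 in both kinds of cells, and KLF15, under 0.9 CPM, had -0.97 and -1.28, not called. Of the SP genes, which bind the same boxes, 7 of 9 were tested and 2 were called, both in KO cells. They were SP1 at -0.27 (adjusted p = 0.00248) and SP4 at -0.38 (adjusted p = 0.000511). Beside these counts, 1.91% of all genes rose and 2.01% fell with BMP in WT cells, and 11.1% and 10.9% in KO cells.

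Genes that work with or upstream of KLF proteins moved little. None of the 8 co-regulators (SIN3A, SIN3B, HDAC1, HDAC2, CTBP1, CTBP2, EP300 and CREBBP) and none of the 4 ubiquitin ligases (WWP1, SMURF1, FBXW7 and BTRC) was called in either BMP response by edgeR. At an unadjusted p under 0.05 they numbered 0 and 0 in WT and 1 and 1 in KO cells. Of all 17188 genes tested, 2637 had such a p in WT and 6099 in KO cells. Of the MEK5-ERK5-MEF2 route that induces KLF2 and KLF4 in endothelium, 4 of 5 genes were tested, and MEF2D rose with BMP in KO cells by 0.29 on the log2 scale. Of 3 tested glucocorticoid-responsive genes, listed because of KLF9, FKBP5 fell in KO cells by 0.17 on the log2 scale.

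Genes described as direct targets of KLF proteins moved in both directions. Of 8 tested, 3 rose and 0 fell with BMP in WT cells, and 4 rose and 2 fell in KO cells, with medians of 0.16 and 0.38 beside 0.00 and 0.01 over all genes. Over all genes, 1.91% rose and 2.01% fell in WT cells, and 11.1% and 10.9% in KO cells. CDKN1A, the p21 gene, rose by 1.18 on the log2 scale in WT (41.6 to 94.5 CPM) and by 1.94 in KO cells (45.2 to 173 CPM). CCND1, encoding cyclin D1, rose by 0.26 in each. LGALS3 rose by 0.39 in KO cells, and S1PR1 and PDGFA fell there by 0.48 and 0.47 on the log2 scale. SMAD7, an inhibitory SMAD and also a BMP target, rose by 1.11 in WT and by 1.35 in KO cells. None of these changes can be assigned to a KLF protein from transcript levels.

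The change of the KLF genes can be set beside other groups. Of all genes, 1.91% rose and 2.01% fell with BMP in WT cells, and 11.1% and 10.9% in KO cells. All 8 BMP target genes (ID1, ID2, ID3, SMAD6, SMAD7, SMAD9, BAMBI and ATOH8) rose in WT and in KO cells, with medians of 1.28 and 1.40, above the 0.64 and 0.98 of KLF4. Of 5 TGF-β target genes, 3 rose in WT and in KO cells, SMAD7, SKIL (0.37 and 0.20) and PMEPA1 (0.38 and 0.61). Of 10 immediate early genes, a class that many KLF genes join after stimulation, 0 were called in WT cells (4 at an unadjusted p under 0.05), and in KO cells 5 rose (FOS 0.43, JUN 0.35, JUNB 0.91, IER2 0.65 and MYC 0.40) and ATF3 fell by 0.29 on the log2 scale. Of 7 proliferation genes, 3 fell in WT cells (PCNA -0.18, TOP2A -0.27 and CCNB1 -0.16), and 6 fell in KO cells, where MKI67 had -0.61, MCM2 -0.24 and CCNE2 -0.59. The part of a change in cell cycle in the values of KLF5, KLF6 and KLF11 was not tested.

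Between KO and WT cells with BMP-on, 5 of the 8 BMP target genes were higher (BAMBI 1.19, SMAD9 0.75, ID2 0.52, SMAD7 0.48 and SMAD6 0.41). Of all genes, 1.32% were higher and 2.34% lower, and 2372 of the 17188 tested had an unadjusted p under 0.05 by edgeR. Of the direct KLF target genes, CDKN1A (0.87) and SMAD7 were higher, and of the immediate early genes, IER2 (0.36) and MYC (0.31). Of the proliferation genes, TOP2A (-0.38), CCNB1 (-0.30) and PCNA (-0.28) were lower. Of the other KLF genes, the SP genes, the co-regulators, the ligases, the MEK5-ERK5-MEF2 genes and the glucocorticoid-responsive genes, edgeR called 0, with 1, 1, 0, 0, 0 and 0 at an unadjusted p under 0.05. With BMP-off, SMAD9 alone among the listed genes was called (0.97). At an unadjusted p under 0.05 by edgeR, 5 of the 8 BMP target genes were higher there, beside 1757 of the 17188 genes tested in either direction. Among them were ID2 (0.43) and SMAD6 (0.42), near their differences with BMP-on. With BMP-on, the 3 higher KLF genes, at 0.25 to 0.32, thus lay below the 5 BMP target genes called in that state.

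**Figure D5:**
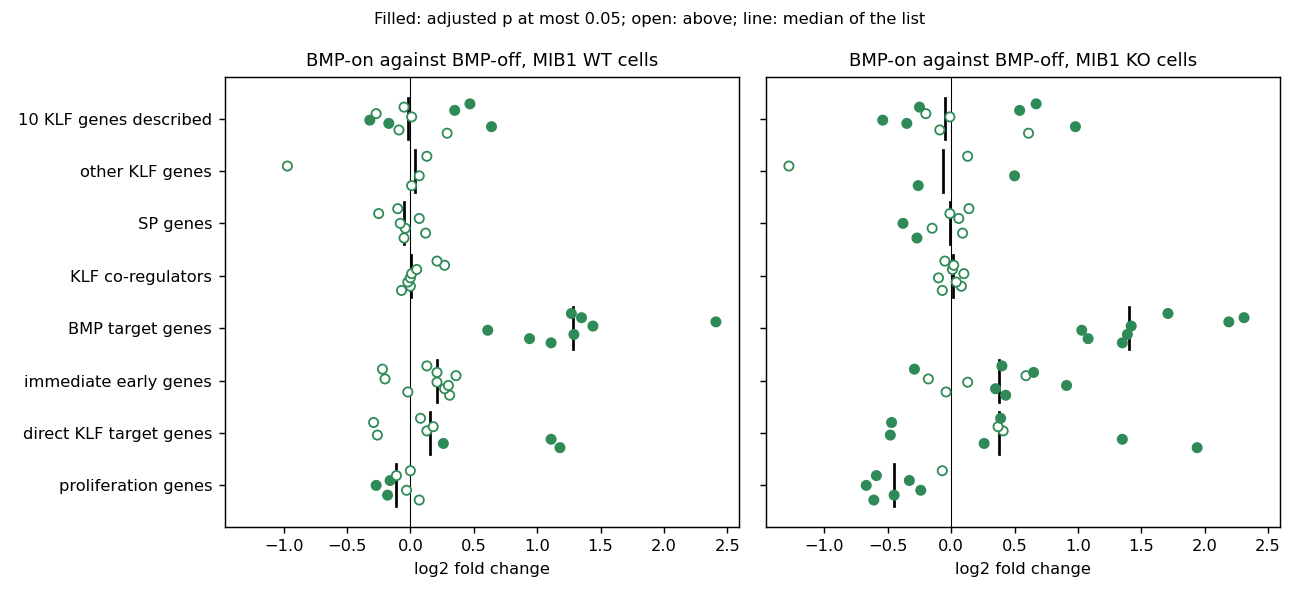
Log2 fold change of BMP-on against BMP-off (x axes) for the tested genes of each list (y axis) in WT (left) and KO cells (right), with 1 point per gene, filled where the adjusted p is at most 0.05, and a line at the median. The BMP target genes have medians of 1.28 and 1.40 and the 10 KLF genes -0.02 and -0.05, with KLF genes on both sides of 0.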

How the data were processed

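The authors aligned 50-base single-end reads to GRCh38 with GSNAP and counted them per gene. The count values were deposited as whole numbers without normalization for 58302 Ensembl identifiers, of which 57532 had a GENCODE v44 symbol. The deposited RPKM values, normalized by the authors, served for levels between genes and as alternatives. Which of 2 library kits was used, and whether strand was used, is not given in the sources used here.

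Genes were tested with edgeR 4.0.16 in R 4.3.3 (TMM scaling, default filter on low counts, robust quasi-likelihood fit with 1 mean per group over 12 libraries). Adjusted p is from the Benjamini-Hochberg method over 17188 genes, and a gene was called at 0.05 or less. Alternatives used limma 3.58.1 (voom after quantile normalization, and log2(RPKM + 1) or log2(RPKM + 0.1) values, also without a filter), DESeq2 1.42.0, scaling by library size or upper quartile, no or a stricter filter on low counts, only the groups compared, a replicate block, a GC correction, both together, and each library left out in turn.

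The KLF genes and the lists were chosen with earlier results of these data known. Named are all 10 KLF genes, the other KLF genes, MIB1, the listed genes called in any comparison, and, for KLF10, KLF11 and the KLF gene that changed most, the 3 genes with the highest r. Co-regulators, ligases and markers are also named to say what was listed. The scripts were tested on simulated data. Same-numbered replicates mostly did not deviate together (2 of 18 pairs had a correlation above 0.1, with a range from -0.46 to 0.52). Replicates differed by 3.56 to 22.5 times the counting variance. No sample column was left out.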

Additional observations from a re-analysis of the deposited data

Results flagged for a closer look

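The BMP response differed between KO and WT cells for 3 genes of the lists set beside the KLF genes (edgeR interaction test with Benjamini-Hochberg adjustment). None of the 10 KLF genes was called, where 16 of all 17188 genes tested (0.0931%) were, so that their absence is close to that background. CDKN1A, described as a target of KLF4 and KLF6, had a difference of 0.75 on the log2 scale (KO minus WT, adjusted p = 0.00843). BAMBI, a BMP target gene, had a difference of 0.96 (adjusted p = 0.00263), and TOP2A, a proliferation gene, one of -0.40 (adjusted p = 0.0484), near the threshold. Other settings were not run for these 3 genes.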

How the results depend on the processing

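Of 17 log2 fold changes of KLF genes that were called, 0 changed sign in 425 values under alternatives and 53 lost the call. The number of KLF genes called in the BMP response of WT cells (5) was 3 with each of the 3 settings on log2(RPKM), 0 with a log2 fold change of at least 1 required, and between 3 and 5 with 1 library left out. In the BMP response of KO cells (6) it was 0 with the fold required and 6 or 7 with 1 library left out. For KO against WT with BMP-on (6) it was 3 with the 3 RPKM settings, 0 with the fold required, and between 3 and 6 with 1 library left out. With a replicate block it was 4, 6 and 4, where the block took the calls of KLF5 in WT cells (adjusted p = 0.0887) and of KLF10 (0.0870) and KLF11 (0.103) between KO and WT cells with BMP-on, and it was 0 with BMP-off and for the interaction. Same-numbered libraries mostly did not deviate together, but deviations also followed GC content, so whether the numbers mark pairs is not settled. With the fold required, calls over all genes were 73, 286, 24, 2 and 0 in the order that follows. Under the other alternatives they ranged from 366 to 1520 for the BMP response in WT cells (674 as reported), 2314 to 5323 in KO cells (3777), 326 to 1293 for KO against WT with BMP-on (630), 2 to 233 with BMP-off (7) and 3 to 318 for the interaction (16). The cause was not tested.

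Values that changed sign in other settings were not called. In the BMP response, KLF7 in WT cells had -0.02 with limma-voom, -0.01 with each RPKM setting and -0.10 to 0.09 with 1 library left out. In KO cells it had 0.01 with library-size scaling, 0.06 with the GC correction, 0.07 with GC correction and replicate block, and -0.08 to 0.02. For KO against WT with BMP-on, KLF9 had 0.01 with library-size scaling, 0.00 with GC correction and block and -0.11 to 0.08 with 1 library left out, KLF3 -0.03 to 0.03 and KLF7 -0.01 to 0.18. With BMP-off, KLF4 had 0.02 with limma-voom, 0.05 with the GC correction, 0.06 with the block added and -0.04 to 0.02 with 1 library left out. There, KLF11 had 0.02 with limma-voom, 0.01 with upper-quartile scaling, 0.00 with only the groups compared, 0.01 with each RPKM setting and -0.02 to 0.03. KLF3 had -0.03 with the GC correction, with or without the block, and -0.03 to 0.05, and KLF2 -0.12 to 0.40. For the interaction, KLF3 had -0.01 with limma-voom and with upper-quartile scaling, -0.00 without a filter on low counts, -0.02 with each RPKM setting and -0.04 to 0.03. KLF7 had 0.02 with the GC correction, 0.03 with the block added and -0.11 to 0.09, and KLF9 -0.04 to 0.16.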
